A study of Mus musculus with 12 samples.

Results

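The response of mouse bone marrow-derived macrophages (BMDMs) to 2 h of LPS was measured by RNA-seq in 3 LPS libraries and 3 control libraries, which are 6 of the 12 libraries of the experiment. The libraries were chosen by their labels alone. All groups were wild-type mouse BMDMs grown for 7 days in 20 ng/ml M-CSF. The control cells received neither LPS nor peptide and carry a label of 0 h, and the LPS cells received 200 ng/ml LPS for 2 h. The other 6 libraries received a cell-penetrating TLR inhibitor peptide before the same LPS. They entered the estimate of the spread, the filter of tested genes and the alternative scalings, but not the group means compared. The sources used here give neither the age of the mice nor whether each library is its own mouse or culture. The p-values therefore reflect only how far these libraries scatter, which may be a technical spread, and LPS cannot be told apart from time or handling in culture.

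LPS is a glycolipid of the outer membrane of Gram-negative bacteria. CD14 hands it to MD-2, which sits on the receptor TLR4. The adaptors TIRAP and MyD88 then recruit IRAK kinases and TRAF6, which leads to release of NF-κB from its IκB inhibitors and to MAP kinase signaling. A further pair of adaptors, TRAM and TRIF, leads to IRF3 and to interferon-β, which acts back on the same cells through STAT proteins. Macrophages respond with cytokines and chemokines, with enzymes of host defence, and with inhibitors that later limit the response.

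Expression is given as FPKM, the number of fragments scaled by transcript length and by the mapped fragments of the library. A fold change is the difference of group means of log2(FPKM + 0.25), which understates the change of genes near 0. Of 23959 genes in the table, 12315 reached 0.5 FPKM in at least 3 of the 12 libraries and were tested with limma. Calls required an adjusted p (Benjamini-Hochberg) below 0.05 together with a difference exceeding 1.5-fold. Library totals ranged from 403473 to 416783 FPKM, and the file gives no read counts, so the depth is unknown. Libraries of one group correlated at r = 0.996 to 0.997 across tested genes, and a control with an LPS library at 0.871 to 0.874. For the 8501 genes with at least 2 FPKM in both group means, the median coefficient of variation was 3.71% in control and 3.53% with LPS. Macrophage markers were abundant in all 6 libraries. Lyz2, a myeloid lysozyme, was at 12228, 11742 and 12064 FPKM in the control libraries and 9718, 9891 and 9876 FPKM in the LPS libraries, and Csf1r, the receptor of M-CSF, at 508, 495 and 516 FPKM in control and 367, 382 and 383 FPKM with LPS. Of 24 macrophage markers, 2 rose (Cd14 and Msr1) and 1 fell (Mertk), and after median-ratio scaling, described below, 3 and 1.

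At 2 h, 46.8% of the tested genes differed between LPS and control. As deposited, 1355 genes were higher with LPS, 11.0% of those tested, and 4405 were lower, 35.8%. The calls were uneven in size. More than 8-fold changes numbered 251 upward and 52 downward, and more than 32-fold changes 79 and 2. In all, 109 genes went from under 0.5 FPKM in every control library to 2 FPKM or more in every LPS library, led by Il1b, Il12b, Il1a and Il27. The reverse held for 53 genes, led by Lpar6, Cnr2, Gpr146 and Zfp395. Groups did not overlap in 5735 of the 5760 called genes. Such separation is likely in any called gene, and was also seen in genes not called, such as Tirap, Traf6, Ndufs1 and Atf4. The share without overlap over all tested genes was not counted, so the separation adds nothing to the calls. Protein-coding genes made up 1212 of the raised and 4012 of the lowered genes, and long noncoding RNA genes 63 and 240.

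The direction of the small changes depended on the scale. The median of all tested genes was -0.39 on the log2 scale, so a typical gene was 1.31-fold lower with LPS in FPKM. After median-ratio scaling, which sets the typical gene to no change, 2094 genes were higher (17.0%) and 2284 lower (18.5%). All 1355 genes called higher as deposited were also called higher after scaling, 739 more joined them, and 2284 of the 4405 lower calls were kept. No gene changed from a higher to a lower call. RNA per cell was not measured, so which scale fits the cells cannot be told, and fewer cells of a type cannot be told apart from less RNA per cell. Below, a gene said to have fallen was called on both scales unless the loss of the call is stated, and for gene lists the counts after scaling follow those as deposited. List counts are to be read against the shares of all tested genes, 11.0% higher and 35.8% lower as deposited and 17.0% and 18.5% after scaling.

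**Figure D1:**
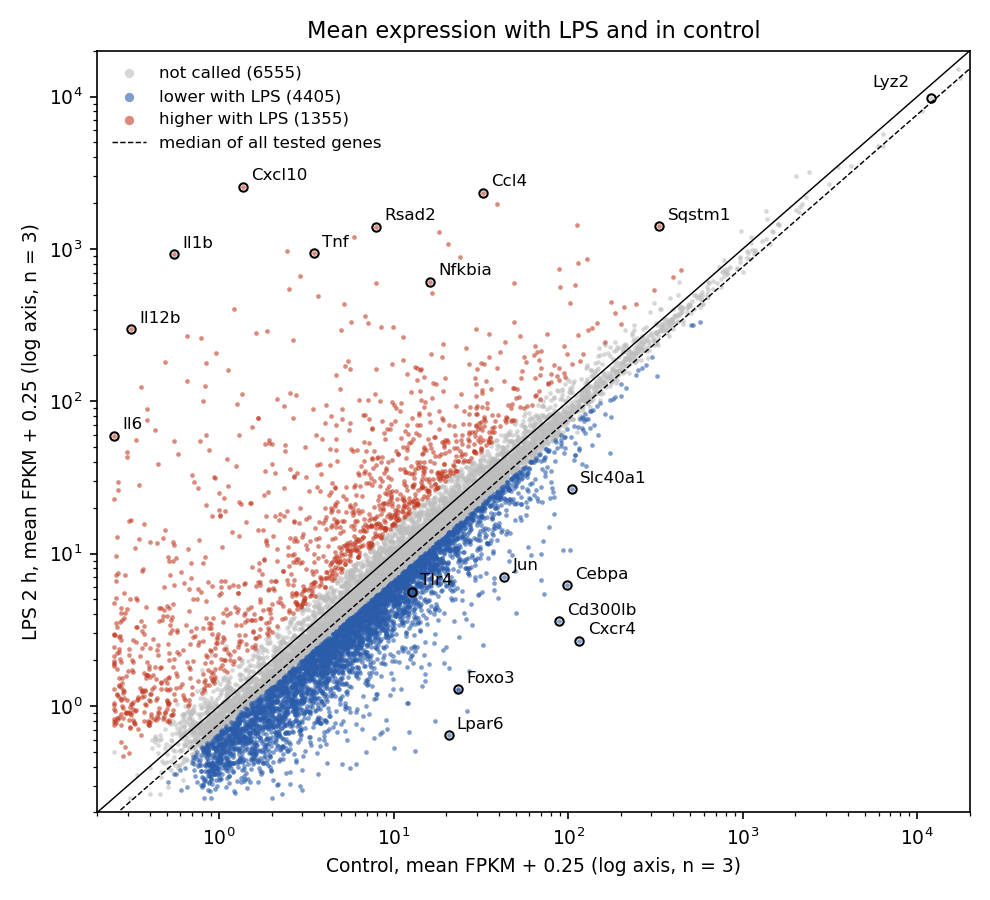
Each point is a tested gene, with its mean FPKM + 0.25 in control on the horizontal and with LPS on the vertical axis (log axes, n = 3 each). Raised genes (red, 1355) reach far above the line of equality, Cxcl10 and Il1b farthest, while most lowered genes (blue, 4405) lie close below the dashed line of the median gene.

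**Figure D2:**
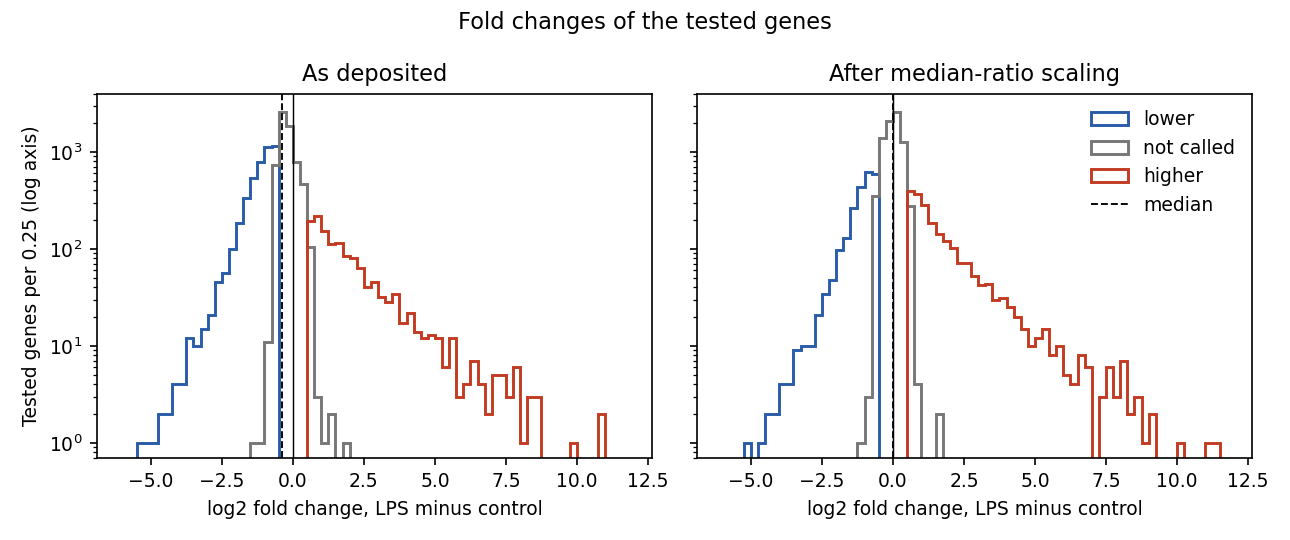
Numbers of tested genes by log2 fold change in bins of 0.25, as deposited and after median-ratio scaling (log axis). The dashed median moves from -0.39 to 0.003 with scaling, and the long upper arm of raised genes is seen on both scales.

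The raised genes took a larger share of the mRNA with LPS. They held 3.95% ± 0.071 of the TPM total in control (mean ± SD, n = 3) and 19.0% ± 0.16 with LPS, while the lowered genes went from 12.3% ± 0.12 to 6.12% ± 0.029. These shares describe genes chosen by their change. For lists chosen by function, an exact permutation test over the 6 libraries cannot go below p = 0.1, which CC chemokines reached at 0.0806% in control and 2.02% with LPS, and interferon-stimulated genes at 0.337% and 2.58%. The same p was reached by lists whose share fell, cytosolic ribosomal proteins (6.55% and 5.79%), oxidative phosphorylation subunits (1.53% and 1.35%) and lysosomal genes (8.58% and 6.92%). Mitochondrially encoded genes held 5.22% ± 0.27 and 4.82% ± 0.33, which did not differ beyond the libraries' spread (exact permutation p = 0.3, two-sided).

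The genes that recognise LPS moved in opposite directions. Tlr4, the receptor itself, was at 12.7, 11.4 and 13 FPKM in the control libraries and 5.26, 5.61 and 5.31 FPKM in the LPS libraries. All LPS libraries were below all controls, with a log2 fold change of -1.16 (SE 0.082, limma adjusted p = 1.8e-08). Ly96, which encodes MD-2, was at 17.2, 17.3 and 18.8 FPKM in control and 20, 20.7 and 20.6 FPKM with LPS, a log2 fold change of 0.20 that was under the fold minimum as deposited and called after scaling. Cd14, which delivers LPS, was at 47.7, 51.3 and 47.1 FPKM in the control libraries and 598, 591 and 606 FPKM in the LPS libraries, and Tlr2, the receptor of bacterial lipopeptides, at 9.83, 9.15 and 9.83 FPKM in control and 305, 304 and 306 FPKM with LPS. Cd14 was thus 12.3-fold higher in mean FPKM and Tlr2 31.8-fold, the latter with a log2 fold change of 4.96 (SE 0.042, limma adjusted p = 2.2e-17). Tlr1, the partner of TLR2, rose from 8.94 ± 0.705 to 24.4 ± 1.22 FPKM, and the RNA sensors Tlr3 and Tlr7 rose from 2.77 to 5.83 and from 26.3 to 50.6 FPKM. Tlr13, a mouse sensor of bacterial ribosomal RNA, fell from 109 ± 3.66 to 44.2 ± 0.959 FPKM. Of LPS recognition and TLR genes, 5 of the 18 tested members rose and 3 fell (8 and 2 after scaling).

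Among the proteins that carry the signal from the receptor, more genes rose than fell, and the calls of several core members depended on the scale. Myd88, the adaptor of most TLRs, was at 26.3, 27.2 and 26.8 FPKM in the control libraries and 70.1, 68.9 and 72.5 FPKM in the LPS libraries, 2.64-fold higher with a log2 fold change of 1.39 (SE 0.041, limma adjusted p = 2.4e-12). The adaptor Tirap was at 4.86, 4.48 and 4.82 FPKM in control and 5.76, 5.93 and 5.99 FPKM with LPS, and the ubiquitin ligase Traf6 at 6.11, 5.91 and 5.94 FPKM in control and 7.48, 7.74 and 7.48 FPKM with LPS. Both lay above control in every LPS library but under the fold minimum as deposited, at log2 fold changes of 0.31 and 0.33. After scaling these were 0.71 and 0.73, and both were called. The kinase Irak4 was at 15, 16.2 and 15.8 FPKM in control and 8.62, 8.2 and 8.61 FPKM with LPS, a fall of 1.85-fold that was not called after scaling. Its partner Irak2 rose from 18.8 ± 0.431 to 54 ± 1.57 FPKM. Tab1, which activates the kinase TAK1, fell most of the list, from 6.66, 6.86 and 6.92 FPKM to 1.14, 1.12 and 1.11 FPKM, with a log2 fold change of -2.36 (SE 0.083, limma adjusted p = 1.3e-11). Traf1, an NF-κB target, rose most, from 0.529 ± 0.0137 to 55 ± 0.973 FPKM, followed by the NOD signaling kinase Ripk2 (3.64 to 55.9 FPKM) and the ubiquitin ligase Peli1 (8.05 to 100.1 FPKM). Over the TIR adaptors, IRAK and TRAF proteins, 12 of the 27 tested members rose and 5 fell (16 and 2 after scaling).

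NF-κB subunits and their IκB inhibitors rose together. Of these genes, 11 of the 14 tested members rose and 0 fell (12 and 0 after scaling), and their median log2 fold change was 2.76 against -0.39 over all genes. Nfkbia, which encodes IκBα, was at 15.5, 16.9 and 15.6 FPKM in the control libraries and 613, 592 and 628 FPKM in the LPS libraries, 38.2-fold higher. No LPS library overlapped a control, with a log2 fold change of 5.23 (SE 0.055, limma adjusted p = 8.9e-17). Nfkbie rose from 1.88 ± 0.199 to 104 ± 0.487 FPKM and Nfkbiz, a nuclear IκB needed for secondary genes such as Il6, from 0.458, 0.519 and 0.787 FPKM to 174, 177 and 183 FPKM. The subunits rose less. Rela was 2.75-fold higher, Nfkb1 7.53-fold, Relb 9.01-fold and Nfkb2 12.2-fold.

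The MAP kinase arm and its AP-1 factors were mixed. Jun was at 42.3, 44.2 and 41.8 FPKM in the control libraries and 6.57, 6.54 and 7.31 FPKM in the LPS libraries and Fos at 15.1, 15 and 15.2 FPKM in control and 4.45, 4.8 and 4.42 FPKM with LPS. Both partners of classical AP-1 were thus lower in every LPS library, with log2 fold changes of -2.61 (SE 0.063) and -1.68 (SE 0.089). Junb was at 40.6, 41.9 and 38.2 FPKM in control and 217, 203 and 216 FPKM with LPS, 5.27-fold higher. Nr4a3, an early nuclear receptor, rose from 0.0807 ± 0.0229 to 10.6 ± 0.194 FPKM, the small MAF protein Maff rose from 0.757 ± 0.00851 to 17.5 ± 0.855 FPKM and Batf rose from 2.63 ± 0.142 to 15.6 ± 1 FPKM, while Klf10 fell from 10.7 ± 0.245 to 4.21 ± 0.114 FPKM. Of immediate early factors, 10 of 26 rose and 6 fell (13 and 3 after scaling). Among kinases of the cascades, 9 of 36 rose and 11 fell (13 and 5 after scaling). Mapkapk2, which acts below p38 on cytokine mRNA, rose from 48.4 ± 0.919 to 332 ± 5.91 FPKM, and Map3k8, the kinase TPL2 that links NF-κB1 to ERK, rose from 4.89 ± 0.225 to 23.6 ± 0.464 FPKM. Map3k1 fell from 11.5 ± 0.859 to 2.8 ± 0.548 FPKM and Map2k6 fell from 1.52 ± 0.14 to 0.25 ± 0.195 FPKM.

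Many inhibitors of the pathway were higher at 2 h. Tnfaip3, which encodes the deubiquitinase A20, was at 5.39, 5.4 and 5.49 FPKM in the control libraries and 326, 335 and 339.8 FPKM in the LPS libraries, 61.5-fold higher with a log2 fold change of 5.88 (SE 0.05, limma adjusted p = 2.2e-17). Socs3, an inhibitor of cytokine receptor signaling, was at 0.593, 0.549 and 0.473 FPKM in control and 242, 265 and 274 FPKM with LPS, Socs1 rose from 0.62 ± 0.107 to 47.3 ± 7.17 FPKM, and Cish, of the same family, rose from 0.195 ± 0.0228 to 38.2 ± 1.33 FPKM. Dusp2, a phosphatase of MAP kinases, rose from 2.13 ± 0.261 to 46.7 ± 1.8 FPKM, but Dusp6, which acts on ERK, was at 4.18, 4.38 and 4.73 FPKM in control and 0.739, 0.638 and 0.646 FPKM with LPS and fell 6.57-fold. A contrast of the same kind was seen in the tristetraprolin family of mRNA-decay factors. Zfp36, tristetraprolin itself, was at 56.5, 56.6 and 58.7 FPKM in control and 180.4, 180.3 and 178 FPKM with LPS, whereas Zfp36l2 was at 68.2, 72.3 and 67.8 FPKM in control and 6.88, 5.97 and 6.43 FPKM with LPS. Zfp36 was 3.14-fold higher, Zfp36l2 10.8-fold lower, and Zfp36l1 fell from 21.4 ± 0.795 to 4.72 ± 0.0777 FPKM. Of the inhibitors of TLR and NF-κB signaling, 23 of the 43 tested members rose and 10 fell (24 and 7 after scaling).

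**Figure D3:**
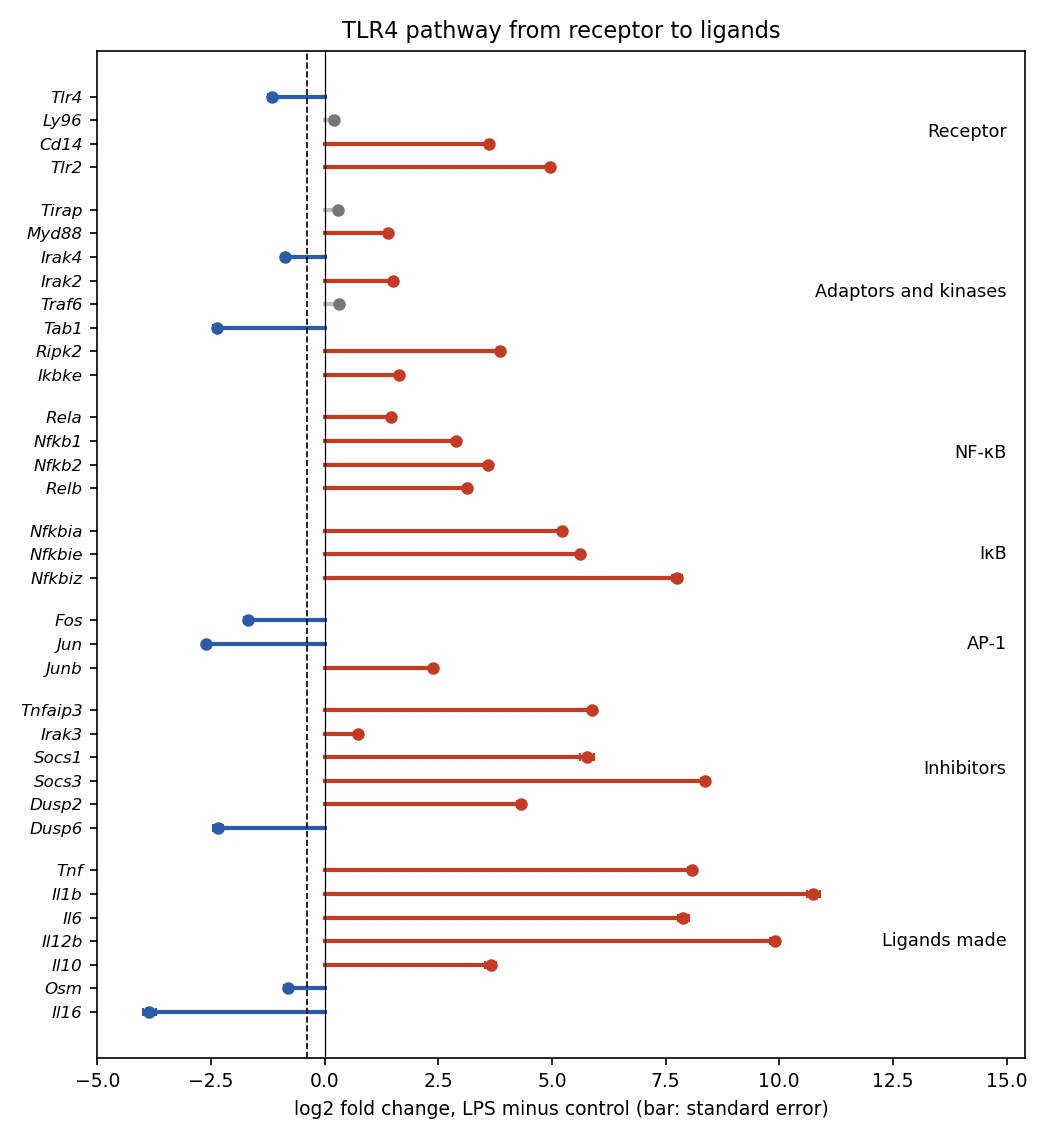
Log2 fold change (LPS minus control, bars are standard errors) of genes of the TLR4 pathway ordered from receptor to ligands, with the median of all genes dashed. Tlr4, Irak4, Tab1, Jun, Fos, Dusp6, Osm and Il16 lie to the left of that line, and the value of Il6, listed at 0 in control, depends on the added 0.25, with Nfkbia, Tnfaip3 and most cytokine genes far to the right.

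Most interleukins rose, several from near 0 FPKM. Il1b was at 0.328, 0.408 and 0.157 FPKM in the control libraries and 929, 915 and 937 FPKM in the LPS libraries, with a log2 fold change of 10.75 (SE 0.14, limma adjusted p = 6.7e-16). Il12b, the p40 chain shared by IL-12 and IL-23, was at 0.0366, 0.0357 and 0.118 FPKM in control and 294, 291 and 308 FPKM with LPS, with a log2 fold change of 9.90 (SE 0.10, limma adjusted p = 7.1e-17). In both, every control library lay under 0.5 FPKM. Il1a rose from 0.407 ± 0.0812 to 267 ± 5.69 FPKM and Il27 from 0.238 ± 0.115 to 181 ± 3.52 FPKM. Il6 was listed at 0 in all control libraries and at 56.5, 60 and 61.4 FPKM with LPS. Il23a, the specific chain of IL-23, rose from 0.0218 ± 0.0234 to 3.3 ± 0.506 FPKM, Csf2, which encodes GM-CSF, was listed at 0 in all controls and at 2.87, 3.27 and 1.94 FPKM with LPS, and Csf1 rose from 4.14 ± 0.24 to 80.3 ± 0.464 FPKM. Il10, the main anti-inflammatory cytokine of macrophages, was at 0.452, 0.439 and 0.416 FPKM in control and 8.32, 9.18 and 7.66 FPKM with LPS, 19.3-fold higher. Il18, made as a precursor before stimulation, rose from 5.82 ± 0.265 to 10.3 ± 0.641 FPKM. Il16, a CD4 ligand, was at 5.06, 5.45 and 5.6 FPKM in control and 0.139, 0.182 and 0.0989 FPKM with LPS and fell 38.3-fold, and Osm, an IL-6 family cytokine, fell from 3.93 ± 0.098 to 2.14 ± 0.124 FPKM but was not called after scaling. In all, 20 of the 23 tested members rose and 2 fell (20 and 1 after scaling).

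Chemokines were among the genes with the largest rises in level. Cxcl10, which attracts T cells through CXCR3, was at 1.12, 1.2 and 1.01 FPKM in the control libraries and 2483, 2562 and 2657 FPKM in the LPS libraries. It was 2311-fold higher in mean FPKM, with the largest log2 fold change of all named genes, 10.88 (SE 0.083, limma adjusted p = 1.2e-17). The ratio of mean FPKM was larger for Il12b and Il1b, at 4681-fold and 3113-fold, and is undefined for genes at 0 in control. Ccl4 was at 32.2, 31.9 and 32.9 FPKM in control and 2354, 2298 and 2364 FPKM with LPS and Ccl3 at 36.8, 37.8 and 41.4 FPKM in control and 1924, 1993 and 2012 FPKM with LPS. Ccl3 and Ccl4, attractants of monocytes and T cells, thus differed by 51.1-fold and 72.3-fold between group means, with no overlap. Ccl2, the monocyte attractant, was 71.4-fold higher (from 18 ± 0.806 to 1289 ± 12.9 FPKM), and Ccl5 rose from 5.66 ± 0.93 to 1196 ± 53.6 FPKM. The neutrophil attractants Cxcl1, Cxcl2 and Cxcl3 rose from 0.105 to 124, from 0.707 to 207 and from 0.179 to 64.1 FPKM. Of CC chemokines, 11 of 14 rose and 0 fell, and of CXC and CX3C chemokines, 8 of 11 rose and 0 fell, with the same counts after scaling. Median log2 fold changes were 4.92 and 5.23.

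Tnf was at 3.16, 3.66 and 2.9 FPKM in the control libraries and 931, 941 and 946 FPKM in the LPS libraries, 289.9-fold higher, with a log2 fold change of 8.08 (SE 0.077, limma adjusted p = 4.3e-17). Its family members Tnfsf15 (0.0852 to 55.6 FPKM), Tnfsf9, which encodes the 4-1BB ligand (0.876 to 159.5 FPKM), and Tnfsf4, which encodes the OX40 ligand (0.595 to 59.5 FPKM), also rose. Of TNF superfamily ligands 7 of 10 rose and 0 fell, on both scales. Of their receptors 5 of 15 rose and 4 fell (7 and 1 after scaling). Cd40, which receives T cell help, was at 1.25, 1.63 and 1.22 FPKM in control and 276, 276 and 287 FPKM with LPS, and Tnfrsf1b, the second TNF receptor, rose from 176 ± 2.92 to 447 ± 4.78 FPKM. Tnfrsf1a, the first, was at 53.3, 55.4 and 56.4 FPKM in control and 56.3, 55.8 and 57.9 FPKM with LPS, with a log2 fold change of 0.04 (limma adjusted p = 0.24).

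Genes of the interferon arm were higher at 2 h. Ifnb1, which encodes interferon-β, was listed at 0 in all control libraries and at 20.8, 23.7 and 22.9 FPKM with LPS. Irf1 was at 16.2, 15.8 and 16.9 FPKM in control and 514, 521 and 499 FPKM with LPS and Irf7, which amplifies interferon production, at 8.62, 8.78 and 10.8 FPKM in control and 64.6, 69.5 and 76.6 FPKM with LPS. These were 31.4-fold and 7.47-fold higher, and no library overlapped. Jak2, Stat5a and Stat2 rose from 6.64 to 80.9, from 9.75 to 94.9 and from 15.5 to 56.2 FPKM. Irf2bp2, a corepressor that binds IRF2, was at 17.9, 16.7 and 16.4 FPKM in control and 0.523, 0.537 and 0.566 FPKM with LPS, with a log2 fold change of -4.44 (SE 0.094, limma adjusted p = 6.8e-14). Its relative Irf2bpl fell from 10.9 ± 0.256 to 3.28 ± 0.241 FPKM. Of the type I interferon, IRF and STAT genes, 11 of 26 rose and 2 fell (15 and 2 after scaling).

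Interferon-stimulated genes had the highest raised share of the 52 lists. Of 90 tested members, 84 rose and 0 fell (88 and 0 after scaling), a share of 93.3% against 11.0% over all tested genes, with a median log2 fold change of 2.73. Rsad2, which encodes the antiviral enzyme viperin, was at 6.42, 7.27 and 9.34 FPKM in the control libraries and 1311, 1428 and 1463 FPKM in the LPS libraries. Ifit1, a sensor of foreign RNA caps, was at 2.4, 2.21 and 3.33 FPKM in control and 630.1, 667 and 680.2 FPKM with LPS, and Gbp5, a guanylate-binding protein of host defence, at 0.949, 0.801 and 1.17 FPKM in control and 374, 410.1 and 418 FPKM with LPS. The groups did not overlap in any of them, with log2 fold changes of 7.48 (SE 0.099), 7.85 (SE 0.11) and 8.37 (SE 0.092). Cmpk2, a neighbour of Rsad2, rose from 3.43 ± 0.558 to 494 ± 23.8 FPKM, Isg15, a ubiquitin-like modifier, from 6.59 ± 0.905 to 362 ± 4.56 FPKM, Mx1 from 1.62 ± 0.524 to 287 ± 17.3 FPKM and Oasl1 from 0.581 ± 0.0579 to 126 ± 4.59 FPKM. Many members belong to families of near-identical copies (Ifi, Ifit, Gbp, Slfn), between which reads can be shared, so single values within these families are uncertain.

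To show the sequence in front of some of the genes that rose most, promoters were searched on both strands for an NF-κB motif (GGGA and CC separated by any 4 bases), the interferon-stimulated response element or ISRE (GAAA, any 2 bases, GAAA) and AP-1 (TGANTCA). The table used held a RefSeq promoter for 183 named raised genes, and some of these promoters were left out of the search. Among those searched, 10 genes held at least 2 of the 3 kinds upstream of the start. The promoters of the 4 of these 10 genes with the largest fold changes are printed. They run 5′ to 3′ on the gene's strand from 10 bases before the first motif, or as far as the table reaches, to the base before the annotated start in GRCm38.p6, with matches in capitals.
Cxcl10 promoter, chr5:92348890-92349112, minus strand: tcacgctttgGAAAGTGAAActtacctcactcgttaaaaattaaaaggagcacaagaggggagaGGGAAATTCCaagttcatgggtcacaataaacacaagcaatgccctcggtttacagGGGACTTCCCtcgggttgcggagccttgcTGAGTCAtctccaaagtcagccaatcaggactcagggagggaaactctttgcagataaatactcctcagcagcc
Gbp5 promoter, chr3:142496759-142496933, plus strand: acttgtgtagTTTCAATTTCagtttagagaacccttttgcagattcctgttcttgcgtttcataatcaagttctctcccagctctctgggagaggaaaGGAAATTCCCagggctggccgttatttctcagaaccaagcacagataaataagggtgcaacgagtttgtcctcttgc
Il6 promoter, chr5:30012864-30013113, plus strand: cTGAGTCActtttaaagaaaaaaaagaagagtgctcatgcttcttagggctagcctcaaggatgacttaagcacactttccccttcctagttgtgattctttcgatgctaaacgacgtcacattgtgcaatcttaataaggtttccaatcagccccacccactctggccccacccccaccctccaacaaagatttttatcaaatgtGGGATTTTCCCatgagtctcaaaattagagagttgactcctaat
Rsad2 promoter, chr12:26456453-26456582, minus strand: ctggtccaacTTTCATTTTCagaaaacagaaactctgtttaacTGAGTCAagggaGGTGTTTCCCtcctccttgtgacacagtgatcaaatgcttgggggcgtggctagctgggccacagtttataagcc
Counted to the first base of each match, in Cxcl10 the ISRE match starts 213 bases before the start, the NF-κB matches 159 and 103 bases before it and the AP-1 match 74. In Gbp5 an ISRE match at 165 and an NF-κB match at 77 bases are found, and in Rsad2 an ISRE match at 120, an AP-1 match at 87 and an NF-κB match at 75. In Il6 the overlapping NF-κB matches, 1 on each strand, start 44 and 43 bases before the start and the AP-1 match lies at 249. A match is a description of letters, not evidence of binding.

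Over whole groups, the ISRE letters were more frequent among raised genes than among lowered, other tested or all genes. The AP-1 letters stood apart from lowered and other tested genes but less from all promoters. The NF-κB letters stood apart mainly from all promoters, as they also did in lowered and other tested genes. In the 300-base promoters (250 bases before and 50 after the start) of protein-coding genes, of which 80.4% of raised, 81.8% of lowered and 81.4% of other tested genes had a sequence, the ISRE was found in 8.11% of raised, 2.04% of lowered and 3.22% of other tested genes, and in 3.49% of all promoters. AP-1 was found in 8.93%, 3.96%, 4.79% and 7.93%, and the NF-κB motif in 29.0%, 25.5%, 25.6% and 20.5%. A shorter NF-κB core (GGAANNNCC) was found in 23.6%, 22.1%, 22.7% and 18.4%. A TATA box (TATAAA within 50 bases before the start, sense strand) was found in 3.80% of raised, 0.884% of lowered and 1.09% of other tested genes, and in 2.88% of all promoters. For C/EBP (TTGCNNAA) the shares were 10.9%, 7.74%, 8.25% and 10.8%, for the CRE (TGACGT) 10.2%, 11.6%, 13.9% and 7.64%, and for the SRF motif (CC, any base, TAT, any 2 bases, GG) 1.95%, 1.04%, 1.62% and 1.53%. The median number of CpG per promoter was 18 in raised, 21 in lowered and 21 in other tested genes, and 7 in all promoters. The set of all 27025 promoters was not limited to protein-coding or tested genes, so it differs in kind from the other groups. These shares carry no test.

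Several enzymes of macrophage effector function rose sharply, though most members of their lists did not rise. Acod1, which makes the antimicrobial metabolite itaconate, was at 2.23, 2.09 and 2.26 FPKM in the control libraries and 945, 978 and 1004 FPKM in the LPS libraries, 444-fold higher, with a log2 fold change of 8.64 (SE 0.041, limma adjusted p = 1.5e-19). Nos2, the inducible nitric oxide synthase, was at 0.0694, 0.0201 and 0.0447 FPKM in control and 40.5, 42.6 and 44.6 FPKM with LPS, and Ptgs2, the inducible cyclooxygenase, at 0.19, 0.0842 and 0.138 FPKM in control and 84.3, 92.3 and 91 FPKM with LPS. Both were under 0.2 FPKM in every control. Arginine transporter Slc7a2 rose from 0.658 ± 0.029 to 17.4 ± 0.714 FPKM, Sod2, the mitochondrial superoxide dismutase, from 13.9 ± 0.653 to 161 ± 1.54 FPKM, Gch1, which makes the cofactor of nitric oxide synthase, from 4.35 ± 0.297 to 20.8 ± 0.699 FPKM, and Ch25h, cholesterol 25-hydroxylase, from 0.0336 ± 0.0104 to 5.24 ± 0.566 FPKM. Arg1, which competes for arginine, was under the filter at 0, 0.0829 and 0 FPKM in control and 0, 0 and 0 FPKM with LPS. Of the itaconate, nitric oxide and arginine enzymes, 10 of 26 rose and 3 fell (13 and 0 after scaling). Of prostaglandin and leukotriene enzymes, 3 of 19 rose and 5 fell (6 and 2). These are 15.8% and 26.3% as deposited, against 11.0% and 35.8% over all genes. Ptges, the synthase of prostaglandin E, was up from 0.84 to 4.06 FPKM. Ptgs1, the constitutive cyclooxygenase, was down from 2.86 to 1.54 FPKM but not called after scaling.

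Nlrp3, the sensor of an inflammasome that matures IL-1β, was at 7.35, 7.53 and 7.89 FPKM in control and 109, 112 and 112 FPKM with LPS, 14.6-fold higher, and Casp4, the caspase-11 of mice that binds LPS inside the cell, rose from 7.28 ± 0.397 to 66.1 ± 0.472 FPKM. Casp1, which cleaves the IL-1β precursor, rose less, from 37.2 ± 0.364 to 67.9 ± 2.45 FPKM, and Gsdmd, the pore protein, was at 22.3, 22.9 and 23.2 FPKM in control and 32.6, 30.4 and 32.2 FPKM with LPS, called only after scaling. Another sensor, Nlrp1b, fell from 17 ± 1.72 to 5.24 ± 0.283 FPKM, and the ATP receptor P2rx7 fell from 19.7 ± 0.457 to 5.99 ± 0.192 FPKM. Of inflammasome and cell death genes, 11 of 29 rose and 9 fell (13 and 4 after scaling).

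Chemoattractant and lipid receptors moved both ways. Cxcr4, which holds cells in marrow through CXCL12, was at 119, 113 and 115 FPKM in the control libraries and 2.7, 2.23 and 2.39 FPKM in the LPS libraries, 47.5-fold lower in mean FPKM, with a log2 fold change of -5.43 (SE 0.057, limma adjusted p = 7.8e-17). This was the largest fall of the named genes on the log2(FPKM + 0.25) scale, while the ratio of mean FPKM was larger for Bmf, Lpar6 and Cnr2. Lpar6, a lysophosphatidic acid receptor, was at 19.8, 19.8 and 21.5 FPKM in control and 0.39, 0.397 and 0.393 FPKM with LPS, and Cnr2, the cannabinoid receptor of immune cells, at 12.7, 12.8 and 13.4 FPKM in control and 0.267, 0.241 and 0.252 FPKM with LPS. Each LPS library was under 0.5 FPKM for both. Lpar5 fell from 11.6 ± 0.448 to 0.802 ± 0.107 FPKM, Ccr2 from 6.7 ± 0.218 to 2 ± 0.07 FPKM and S1pr1 from 15.5 ± 0.709 to 4.65 ± 0.0946 FPKM. In the same libraries the formyl peptide receptors Fpr1 and Fpr2 rose from 0.0819 to 4.86 and from 0.117 to 7.66 FPKM, the chemerin-binding receptor Ccrl2 from 6.87 ± 0.606 to 326 ± 8.32 FPKM and the complement receptor C5ar1 from 64 ± 4.18 to 229 ± 4.94 FPKM. Adora2a, an adenosine receptor that restrains inflammation, was at 0.0474, 0.125 and 0.119 FPKM in control and 27.6, 28.1 and 28.8 FPKM with LPS, and Gpr84, a fatty acid receptor, rose from 1.28 ± 0.135 to 67 ± 3.12 FPKM. Of chemoattractant receptors, 8 of 21 rose and 10 fell (9 and 8 after scaling), and of nucleotide, adenosine and lipid receptors, 8 of 20 rose and 8 fell (9 and 8).

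Among receptors for microbes and dead cells, some genes rose and others fell. Clec4e, which encodes the mycobacterial glycolipid receptor Mincle, rose from 4.74 ± 0.229 to 293 ± 6.85 FPKM, Olr1, a receptor of oxidised lipoprotein, from 0.0553 ± 0.0271 to 16 ± 0.589 FPKM and Msr1 from 44.8 ± 1.87 to 93.7 ± 4.37 FPKM. Cd300lb was at 89, 84.4 and 89.8 FPKM in control and 3.35, 3.42 and 3.3 FPKM with LPS, 26.1-fold lower, and its relatives Cd300a and Cd300lf fell from 115 to 49.4 and from 29.2 to 12.3 FPKM. Mertk, the receptor for uptake of apoptotic cells, fell from 33.1 ± 1.72 to 12.6 ± 0.686 FPKM, while Cd36 was at 482, 463 and 491 FPKM in control and 403, 434 and 399.8 FPKM with LPS and was not called. Of scavenger and dead-cell uptake receptors, 5 of 33 rose and 12 fell (6 and 6 after scaling), shares of 15.2% and 36.4% that are close to those of all genes. Of C-type lectin, Fc and other innate receptors, 8 of 31 rose and 2 fell (14 and 0).

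**Figure D4:**
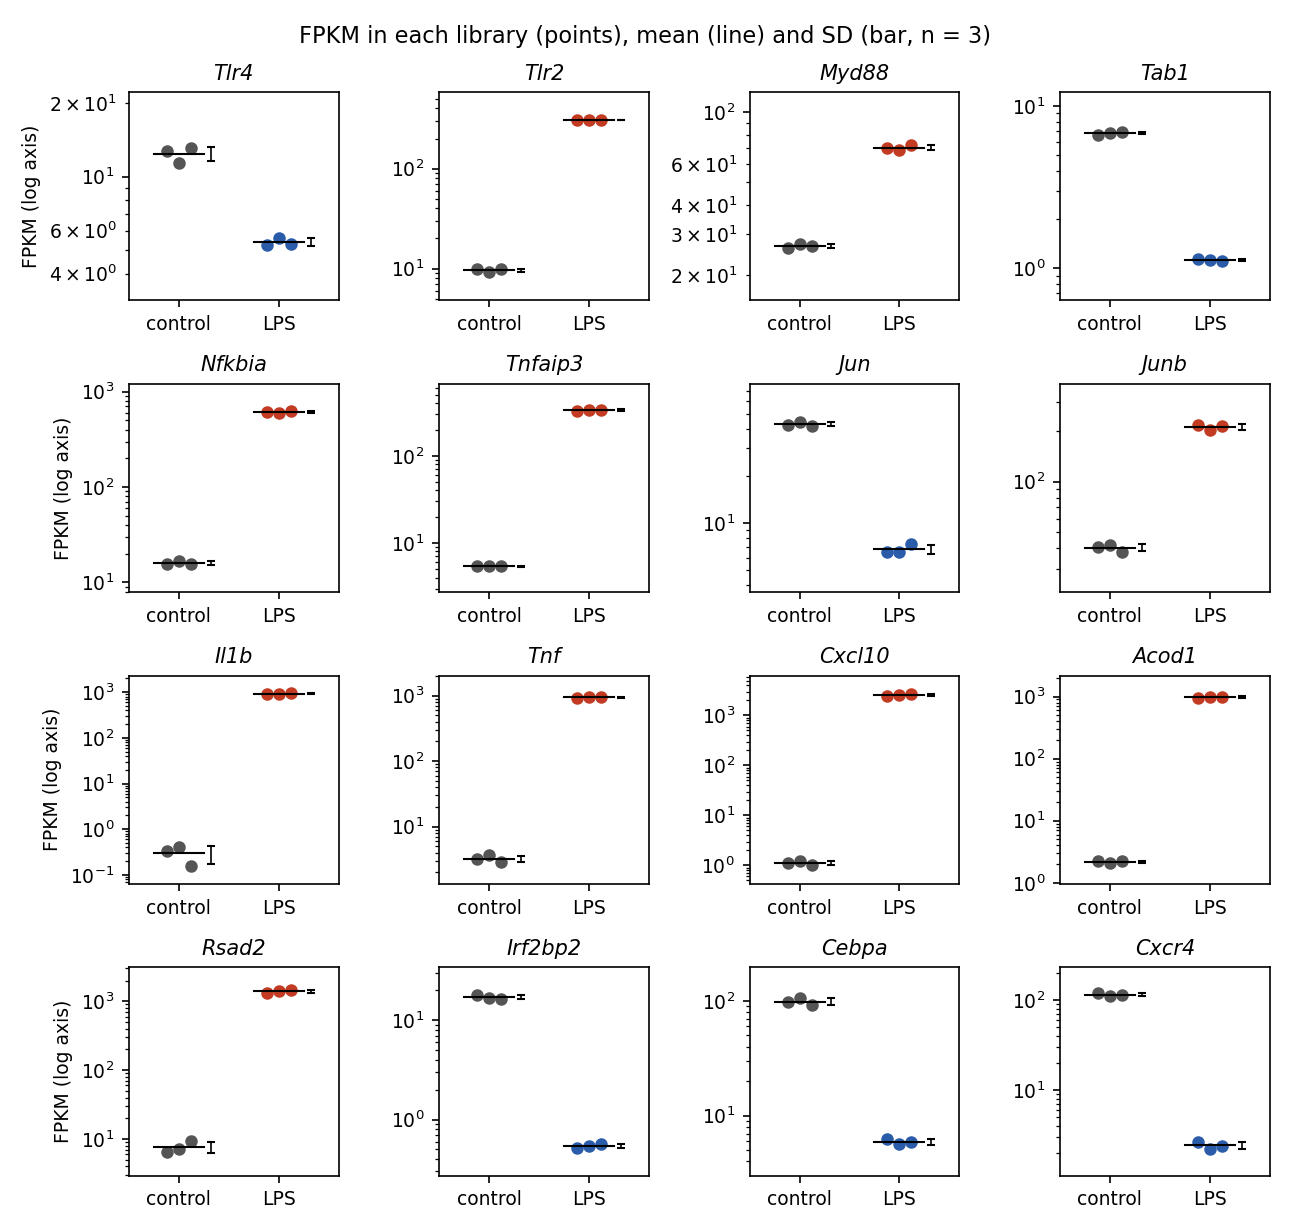
FPKM of 16 genes in each control and LPS library (points, log axis), with the mean (line) and SD (bar, n = 3). In each panel the LPS libraries lie apart from the controls, for instance Cxcl10 at 2483 to 2657 against 1.01 to 1.21 FPKM and Cxcr4 at 2.23 to 2.70 against 113 to 119 FPKM.

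Genes of antigen presentation and adhesion were raised more often than lowered. Of MHC class I presentation genes, 12 of 24 rose and 0 fell (18 and 0 after scaling), led by the peptide transporter Tap1 (from 16.9 ± 0.77 to 58.4 ± 2.53 FPKM). Of MHC class II and costimulatory genes, 10 of 21 rose and 4 fell (13 and 1). Cd274, which encodes PD-L1, rose from 25.7 ± 1.81 to 223 ± 14.8 FPKM, Cd83 from 9.57 ± 0.339 to 176 ± 1.35 FPKM and Cd86 only from 2.46 ± 0.273 to 4.59 ± 0.242 FPKM. March1, the ligase that removes MHC class II and CD86 from the surface, fell from 12.7 ± 0.572 to 4 ± 0.229 FPKM. Icam1, the ligand of leukocyte integrins, was at 23.4, 23.9 and 23.5 FPKM in control and 890.2, 866 and 892 FPKM with LPS, 37.4-fold higher. Of adhesion and matrix genes, 21 of 44 rose and 5 fell (22 and 2), among them the protease Mmp13 (5.01 to 170.0 FPKM) and the adhesion receptor Vcam1 (0.451 to 32.7 FPKM). Plau, the urokinase, fell from 56.1 to 32.6 FPKM but was not called after scaling. Complement C3 was at 2.28, 2.23 and 2.42 FPKM in control and 109, 109.7 and 119 FPKM with LPS, 48.7-fold higher, while the C1q chain C1qa was at 25, 26.7 and 24.3 FPKM in control and 27, 25.6 and 27.1 FPKM with LPS and was not called. Of complement genes, 3 of 14 rose and 1 fell (3 and 0), shares of 21.4% and 7.14% as deposited against 11.0% and 35.8% over all genes.

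Of glycolysis and HIF-1 genes, 6 of 36 rose and 8 fell (9 and 4 after scaling). As deposited these are 16.7% and 22.2%, against 11.0% and 35.8% over all genes. Hif1a rose from 16.1 ± 0.892 to 48.9 ± 1.85 FPKM, hexokinase Hk2 from 12.9 ± 0.523 to 31.3 ± 0.208 FPKM and the glucose transporter Slc2a1 from 14.1 ± 0.319 to 26.9 ± 1.21 FPKM. Vegfa, a target of HIF-1, was at 12.1, 12 and 12.5 FPKM in control and 1.88, 1.77 and 1.69 FPKM with LPS, 6.86-fold lower, and the related enzymes Pfkfb3 and Pfkfb4, which set the level of a glycolytic activator, went opposite ways, from 8.05 to 15 and from 11.6 to 3.34 FPKM. Of LXR targets and lipid handling genes, 4 of 33 rose and 11 fell (7 and 8), shares of 12.1% and 33.3% that are close to those of all genes. The sterol exporters also divided, with Abca1 up from 26.1 to 40.6 FPKM and Abcg1 at 38.3, 39.3 and 39 FPKM in control and 11.8, 12.3 and 12.2 FPKM with LPS. Nuclear receptors Pparg, Ppard and Rxra fell from 17 to 4.06, from 15.3 to 3.18 and from 21.8 to 5.52 FPKM. Of cholesterol synthesis and uptake genes, 0 of 30 rose and 8 fell (4 and 4), with Scd2, a fatty acid desaturase, down from 40.1 to 14.7 FPKM. The lowered shares of this list, 26.7% and 13.3% after scaling, are below the 35.8% and 18.5% of all genes.

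Iron, heme and NRF2 genes showed a similar split. Slc40a1, which encodes the iron exporter ferroportin, was at 106, 101 and 106 FPKM in the control libraries and 26.5, 26.3 and 25.7 FPKM in the LPS libraries, 3.99-fold lower, while the zinc and iron importer Slc39a14 rose from 2.46 ± 0.241 to 12.4 ± 0.929 FPKM and the siderophore-binding Lcn2 from 0.574 ± 0.0635 to 9.27 ± 0.801 FPKM. Sqstm1, the autophagy receptor p62, was at 333, 329 and 338 FPKM in control and 1434, 1383 and 1428 FPKM with LPS, and Txnrd1 and Slc7a11 rose from 55.2 to 195 and from 2.43 to 31.4 FPKM. Other NRF2 targets did not follow. Hmox1, heme oxygenase, was at 241, 245 and 243 FPKM in control and 148, 149 and 148 FPKM with LPS, a fall not called after scaling, Nqo1 was at 5.97, 6.33 and 6.36 FPKM in control and 4.94, 5.61 and 4.48 FPKM with LPS and was not called, and Gclc fell from 10.7 ± 0.217 to 4.54 ± 0.0965 FPKM. Of the list, 9 of 38 rose and 5 fell (13 and 2 after scaling).

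Stress and survival genes moved both ways. The BCL2 relatives Bcl2a1a, Bcl2a1b and Bcl2a1d, near-identical copies that may share reads, rose from 2.15 to 51.4, from 29.4 to 297 and from 4.43 to 148 FPKM, and Cflar, which blocks caspase-8, rose from 13 ± 0.793 to 167 ± 6.96 FPKM. Death-promoting Bmf was at 2.88, 2.56 and 2.73 FPKM in control and 0.0428, 0.0209 and 0.0294 FPKM with LPS, and Bbc3 fell from 11.2 ± 1.23 to 3.32 ± 0.449 FPKM. Sesn1, a sestrin of the p53 and FOXO programmes, was at 72.3, 70.9 and 74.2 FPKM in control and 4.96, 5.23 and 5.36 FPKM with LPS, and Trp53inp1 fell from 20.4 ± 1.43 to 1.52 ± 0.133 FPKM, yet the p53 target Cdkn1a, the cyclin kinase inhibitor p21, rose from 127 ± 3.36 to 865 ± 8.82 FPKM. Gadd45b rose from 34.7 ± 1.08 to 275 ± 5.36 FPKM while Gadd45a fell from 24.9 ± 1.38 to 3.82 ± 0.404 FPKM. Of p53 targets and survival genes, 13 of 37 rose and 11 fell (17 and 10 after scaling). Foxo3 was at 24, 21.9 and 23.8 FPKM in control and 1.16, 0.997 and 0.975 FPKM with LPS, 22.3-fold lower. In the integrated stress response and unfolded protein response, 4 of 39 rose and 9 fell (6 and 8). As deposited these are 10.3% and 23.1%, against 11.0% and 35.8% over all genes. Ddit3, which encodes CHOP, fell from 19.8 ± 0.311 to 5.91 ± 0.404 FPKM, Sesn2 from 10.7 ± 0.352 to 1.04 ± 0.0788 FPKM and the kinase Eif2ak3 from 7.63 ± 0.111 to 1.39 ± 0.197 FPKM, while Atf4 was at 46.6, 49.8 and 49.4 FPKM in control and 43.6, 42.8 and 43 FPKM with LPS, Ppp1r15a, the phosphatase subunit that ends the response, rose from 14.7 ± 1.03 to 91.7 ± 1.18 FPKM and Hspa5, the chaperone BiP, from 201 ± 4.84 to 323 ± 6.56 FPKM. Among heat shock chaperones, 7 of 26 rose and 1 fell (10 and 0), with the copies Hspa1a and Hspa1b, whose reads can be shared, up from 1.83 to 17.3 and from 1.25 to 21.3 FPKM.

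Many transcription factors of the resting macrophage fell. Of macrophage lineage factors, 11 of the 47 tested members rose and 28 fell (13 and 19 after scaling), so 59.6% fell against 35.8% of all genes, and 40.4% against 18.5% after scaling. Cebpa, which specifies the myeloid lineage, was at 97.9, 106 and 91.4 FPKM in the control libraries and 6.32, 5.62 and 5.85 FPKM in the LPS libraries, 16.6-fold lower with a log2 fold change of -4.00 (SE 0.082, limma adjusted p = 5e-14). Hhex, a homeobox factor, was at 14.7, 15 and 15 FPKM in control and 1.33, 1.52 and 1.3 FPKM with LPS. Both were lower in every LPS library by more than 8-fold in group means. Tfeb, which drives lysosomal genes, fell from 22 ± 0.154 to 3.38 ± 0.0753 FPKM, Id3 from 82.2 ± 7.5 to 17.9 ± 1.33 FPKM and Bhlhe40 from 22.1 ± 0.639 to 4.75 ± 0.385 FPKM. The pioneer factor Spi1, or PU.1, was at 159.5, 165 and 158 FPKM in control and 248, 229 and 245 FPKM with LPS, just under the fold minimum at a log2 fold change of 0.58. It was called as higher after scaling, and as deposited without control replicate 2 (0.60) or LPS replicate 2 (0.62). Irf8, a partner of PU.1, was at 51.3, 51.4 and 51.2 FPKM in control and 52.3, 52.4 and 58.6 FPKM with LPS. Relatives of TFEB rose instead, Tfec from 11.7 ± 0.688 to 152 ± 1.87 FPKM and Mitf from 11.6 ± 0.283 to 49.8 ± 1.72 FPKM. Ets2 rose from 2.9 ± 0.22 to 31.4 ± 1.03 FPKM. Mnt, which antagonises MYC, was at 23.8, 22.8 and 22.5 FPKM in control and 1.02, 1.03 and 1.03 FPKM with LPS, 22.4-fold lower, and Lyl1 fell from 26.8 ± 1.64 to 1.44 ± 0.214 FPKM.

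Genes of TGF-β, BMP and Notch signaling were lowered at about the share of all genes. Of the TGF-β, SMAD, Notch and Hippo list, 8 of 34 rose and 12 fell (11 and 6 after scaling), so 35.3% fell against 35.8% over all genes, and 17.6% against 18.5% after scaling. Smad7, which blocks TGF-β receptors, was at 1.66, 1.95 and 1.49 FPKM in control and 0.167, 0.121 and 0.154 FPKM with LPS, Smad6 fell from 3.48 ± 0.143 to 0.353 ± 0.102 FPKM, Ski from 26.7 ± 0.566 to 7.03 ± 0.179 FPKM and Id1 was at 4.15, 5.41 and 4.83 FPKM in control and 1.23, 1.1 and 1.08 FPKM with LPS. Gdf15, a TGF-β family cytokine of stressed cells, was at 28.4, 27.9 and 27 FPKM in control and 9.8, 8.28 and 9.54 FPKM with LPS. In the same list the activin chain Inhba, the Notch ligand Jag1 and Rbpj, the DNA-binding partner of Notch, rose from 0.0193 to 1.8, from 1.59 to 12 and from 10.4 to 45.2 FPKM, and Tgfbr1 was at 32.4, 30.2 and 33.3 FPKM in control and 29.5, 31 and 30.1 FPKM with LPS.

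As deposited, clock and arrestin genes, zinc finger genes and cell cycle genes had the largest lowered shares, 77.3%, 71.1% and 61.8%. After scaling these were 72.7%, 49.5% and 33.8%, and cell cycle genes then stood behind macrophage lineage factors (40.4%) and the nucleotide and lipid (40.0%) and chemoattractant (38.1%) receptors. Of circadian clock and arrestin genes, 1 of 22 rose and 17 fell (3 and 16 after scaling), with a median log2 fold change of -1.33. Per1, a clock repressor, was at 5.27, 5.04 and 5.2 FPKM in control and 0.33, 0.342 and 0.372 FPKM with LPS, Dbp and Nr1d1 fell from 9.36 to 1.39 and from 2.66 to 0.45 FPKM, and Arrdc3, an adaptor for receptor uptake, was at 26.4, 25.1 and 26.3 FPKM in control and 0.65, 0.704 and 0.682 FPKM with LPS. Only Nfil3 of this list rose as deposited, from 2.92 ± 0.206 to 10.6 ± 0.72 FPKM. Of zinc finger genes named Zfp, 12 of 277 rose and 197 fell (21 and 137), with Zfp395 down from 9.83 to 0.278 and Zfp652 from 9.68 to 1.25 FPKM, and Zfp800 up from 4.11 to 18.6 FPKM. Many of these genes are alike in sequence and may share reads. Of cell cycle and DNA replication genes, 4 of 68 rose and 42 fell (6 and 23). E2f2, an S-phase activator, was at 6.03, 5.86 and 5.85 FPKM in control and 0.77, 0.669 and 0.665 FPKM with LPS, and the licensing factors Cdt1 and Mcm2 fell from 20.4 to 6.35 and from 7.6 to 3.5 FPKM. Ccnd1 fell from 22.6 ± 1.12 to 10.5 ± 0.383 FPKM while its relative Ccnd2 rose from 0.295 ± 0.0475 to 11.6 ± 0.709 FPKM, and Mki67, a marker of cycling cells, was at 29.9, 29.7 and 32 FPKM in control and 35, 38.7 and 35.9 FPKM with LPS and was called as higher only after scaling.

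Of chromatin-modifying enzymes, 9 of 73 rose and 35 fell (14 and 19 after scaling). These are 12.3% and 47.9% against 11.0% and 35.8% over all genes, and 19.2% and 26.0% against 17.0% and 18.5% after scaling. The DNA methyltransferases Dnmt3a and Dnmt1 fell from 37 to 10.1 and from 30 to 10.6 FPKM. Tet3, which oxidises methylcytosine, fell from 10.7 ± 0.43 to 3.73 ± 0.126 FPKM, but its relative Tet2 rose from 4.79 ± 0.403 to 16.1 ± 0.342 FPKM. Setdb2, an interferon-inducible methyltransferase, was at 1.82, 2.07 and 2.07 FPKM in control and 16.7, 18.4 and 18.8 FPKM with LPS, and Kdm6b, a histone demethylase known to respond to LPS, rose from 2.77 ± 0.174 to 4.6 ± 0.094 FPKM. Of RGS proteins and phosphodiesterases, 7 of 30 rose and 12 fell (8 and 7). These are 23.3% and 40.0% as deposited, and 26.7% and 23.3% after scaling. The cAMP phosphodiesterase Pde4b rose from 0.868 to 27.4 FPKM and Rgs2 fell from 43.6 to 13.2 FPKM. Of ubiquitin-specific proteases and TRIM ligases, 17 of 82 rose and 35 fell (23 and 23), shares of 20.7% and 42.7% (28.0% and 28.0%). Usp18, which removes ISG15, rose from 3.36 ± 0.614 to 59.7 ± 4.43 FPKM. Of RAB and ARF traffic GTPases, 7 of 67 rose and 18 fell (12 and 11), shares of 10.4% and 26.9% (17.9% and 16.4%). Among them Rab32 rose from 34.2 to 97.4 FPKM and Rab7b fell from 71.4 to 11.9 FPKM.

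Housekeeping lists stayed mostly under the fold minimum. Of oxidative phosphorylation subunits, 0 of 74 rose and 0 fell by limma (0 and 0 after scaling), also at an unadjusted p under 0.05 with the same fold minimum, although 66 were lower at the adjusted p alone. Of cytosolic ribosomal proteins, 0 of 79 rose and 0 fell (2 and 0 after scaling), with 67 lower at the adjusted p alone. Their median log2 fold changes, -0.22 and -0.20 as deposited, turned to 0.20 and 0.23 after scaling, so the lower values hold on the deposited scale only. Of mitochondrial ribosomal proteins, 2 of 78 rose and 14 fell (2 and 3 after scaling). Of splicing factors, 2 of 39 rose and 4 fell (4 and 0), and of lysosomal hydrolases, cathepsins and V-ATPase subunits, 2 of 63 rose and 8 fell (2 and 1). Ctsd, the lysosomal protease cathepsin D, was among the most abundant mRNAs at 10579.8, 10521 and 10668 FPKM in control and 7996, 7906 and 8057 FPKM with LPS and was not called, whereas Ctsc, which activates serine proteases, rose from 13.4 ± 0.524 to 69.7 ± 3.32 FPKM. For all 17 list counts of 0, the count at an unadjusted p with the same fold minimum was also 0. That setting adds few calls over all genes (1358 and 4408 against 1355 and 4405), so it is a weak check. At the adjusted p without a fold minimum, some of these counts stayed at 0 and others did not, for instance 7 cholesterol genes higher and 4 MHC class I genes lower.

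**Figure D5:**
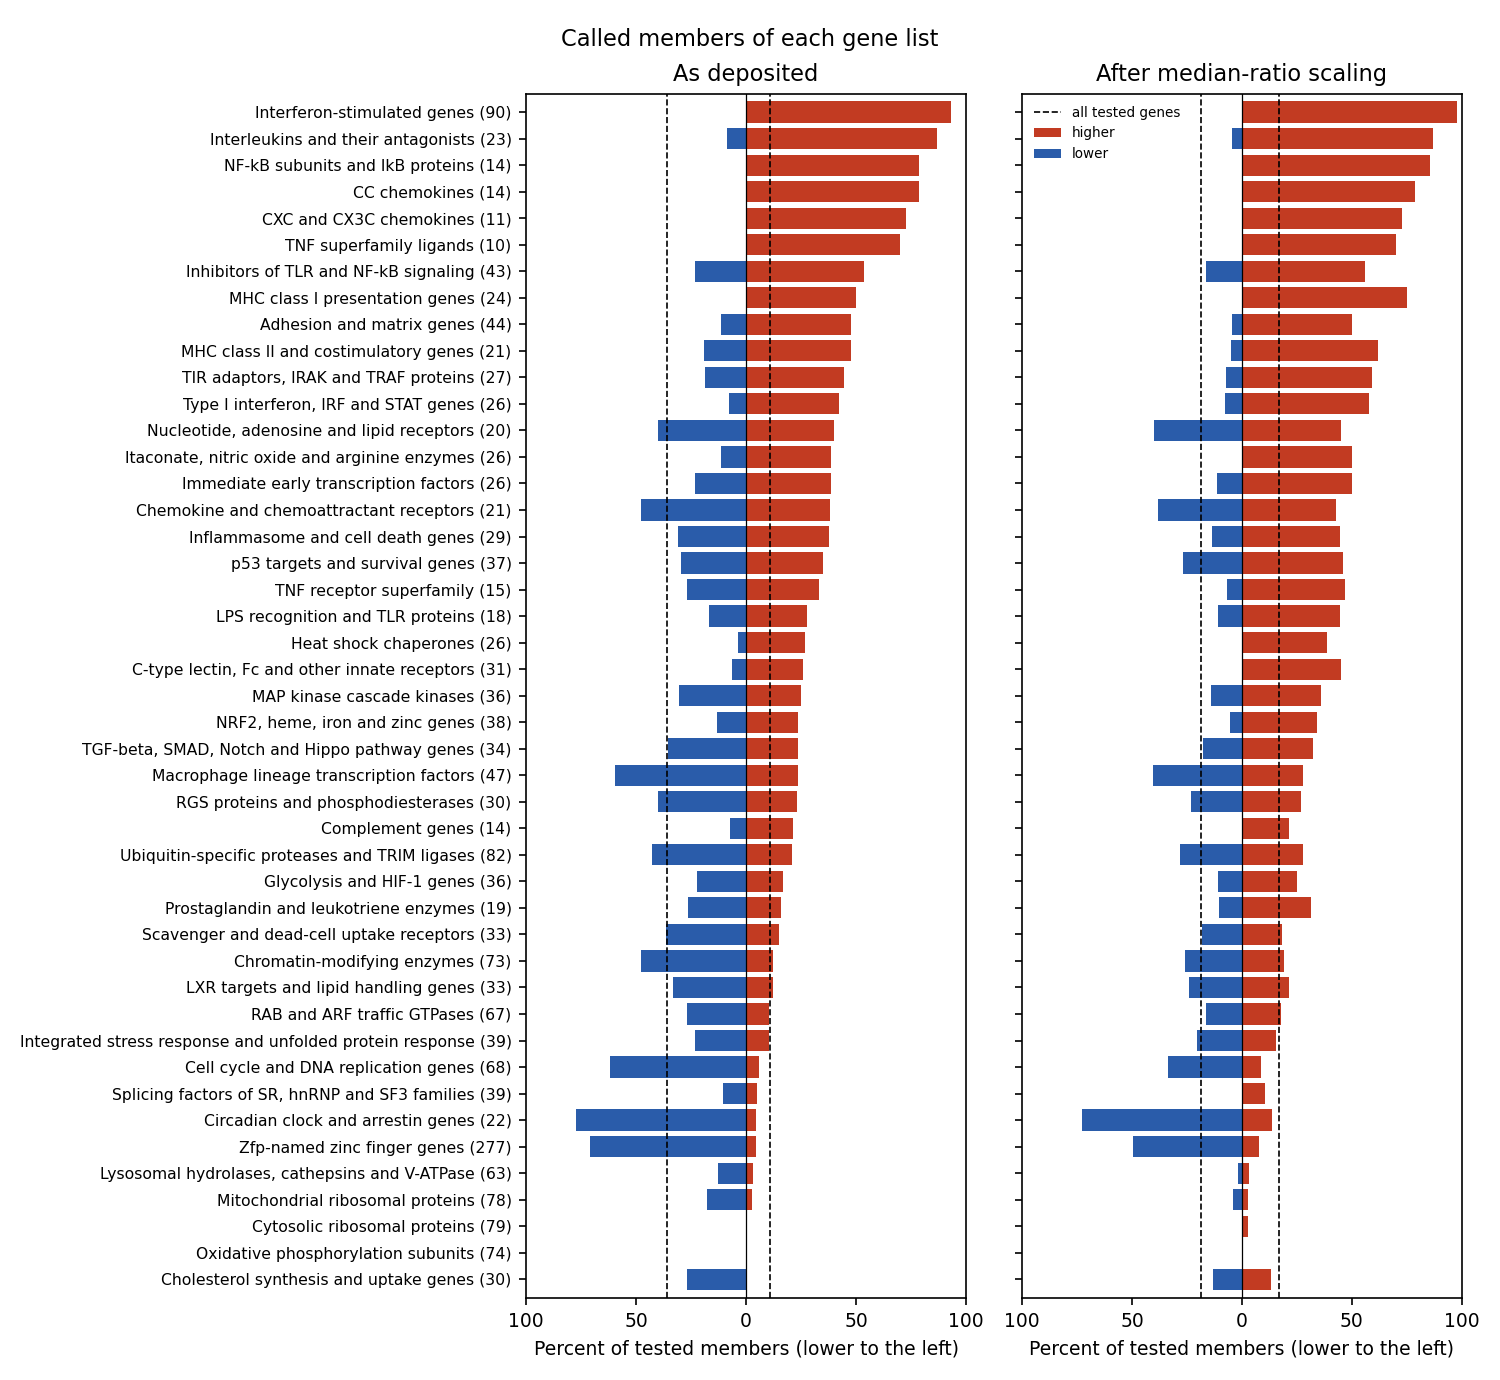
Percent of tested members called higher (red, right) or lower (blue, left) in each gene list other than the cell type markers, with the number tested in brackets, as deposited and after median-ratio scaling. Dashed lines mark all tested genes (11.0% and 35.8%, then 17.0% and 18.5%). Interferon-stimulated genes at 93.3% higher, and clock and arrestin genes at 77.3% lower, have the highest shares.

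By absolute level, the 10 genes with the largest rises held 0.138% of the TPM total in control and 3.84% with LPS. Beside the chemokines, Rsad2, Acod1 and Sqstm1 above, they were Tnfaip2, at 111, 112 and 111 FPKM in control and 1454, 1405 and 1460.1 FPKM with LPS, and the heparan sulfate proteoglycan Sdc4, 53.6-fold higher (from 20.2 ± 0.34 to 1082 ± 3.85 FPKM). Marcksl1, an actin-regulating protein that was among the largest fold changes, was at 2.47, 2.4 and 1.94 FPKM in control and 564, 511 and 561 FPKM with LPS. The 10 largest falls in level held 0.779% and 0.433%, and include Cxcr4. Ubb, a polyubiquitin gene, fell from 516 to 317 FPKM, and Plin2, which coats lipid droplets, from 506 to 317 FPKM, neither of them called after scaling. Apobec1, an RNA-editing enzyme, was at 168, 168 and 182 FPKM in control and 43.9, 46.7 and 45.5 FPKM with LPS and was called on both scales.

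Raised genes lay together at several gene clusters. Among the 12255 tested genes with a position in GRCm38.p6, 30 runs of at least 4 neighbouring tested genes were raised throughout and held 156 genes. The longest, 15 genes at chr1:173349547-174031755, runs from Aim2 to Ifi205 in the Ifi200 cluster of DNA sensors. A run of 6 at chr19:34550550-34662981 holds the Ifit genes, runs of 5 hold Ccl2, Ccl7, Ccl12 and Ccl8 at chr11:81980578-82116799 and Gbp5, Gbp7, Gbp3 and Gbp2 at chr3:142496934-142638008, and a run of 5 at chr5:92284010-92435259 holds Cxcl9, Cxcl10 and Cxcl11 between Sdad1 and Nup54. Log2 fold changes were 0.96 to 6.58 in the first of these and 0.69 to 10.88 in the last. Every member of these 5 runs was also called after scaling. Lowered genes, being more frequent, formed 204 runs with 1002 genes. The longest had 13 genes, and 1 of those at chr2:175185165-176433084 holds a cluster of zinc finger genes, of which 8 of 13 were called after scaling.

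Raised genes were not shorter as a group, but the most strongly raised were. Among protein-coding genes, the median gene span was 25.4 kb for raised, 22.8 kb for lowered and 21.9 kb for other tested genes, and 13.6 kb for those raised more than 8-fold, with a median of 8, 9, 9 and 6 exons. An AU-rich nonamer (TTATTTATT), the core of elements that speed mRNA decay, was present in the 3′ untranslated region of 11.2% of raised, 7.30% of lowered and 6.20% of other tested genes. Over all these genes the median region was 1216 bases in raised, 1076 in lowered and 807 in other tested genes, and 925 in those raised more than 8-fold. Among regions of 500 to 1500 bases, where lengths differ less, the shares were 8.43%, 5.17% and 5.63%, and 14.7% for genes raised more than 8-fold. These features were chosen after values were seen and are a description with no test.

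Markers of other cells were examined for a part of other cell types in the cultures. Of 9 tested neutrophil markers, 5 rose and 1 (Csf3r) fell, and the summed level of the 13 genes was 48.6 to 54.5 in control and 59.4 to 60.6 with LPS (FPKM). S100a8 was at 6.24, 5.87 and 6.15 FPKM in control and 13.2, 10.9 and 11.2 FPKM with LPS and S100a9 at 5.46, 4.46 and 6.42 FPKM in control and 13.8, 15.1 and 15.8 FPKM with LPS, while the granule gene Mpo was at 0.344, 0.294 and 0.372 FPKM in control and 0.449, 0.417 and 0.404 FPKM with LPS and Ly6g was at 0 in all control libraries. The call of Csf3r was lost without control replicate 3, at a log2 fold change of -0.55, and after scaling. On the same scale, markers of T, B and NK cells summed to 3.67 to 3.92 in control and 3.23 to 3.4 with LPS (1 of 3 tested rose, and 1 fell but was not called after scaling), those of mast cells, basophils and eosinophils to 2.34 to 2.71 in control and 1.56 to 2.03 with LPS (0 of 3 changed), and stromal, endothelial and epithelial markers to 2.17 to 2.54 in control and 2.25 to 2.48 with LPS (1 of 3 rose). Of 6 tested dendritic cell markers, which macrophages partly share, 3 rose and 0 fell (4 and 0 after scaling, summed level 122 to 124 in control and 143 to 162 with LPS), while Xcr1 was at 0 in all controls. Among erythroid and megakaryocyte markers the sum was 346 to 355 in control and 322 to 324 with LPS (0 of 1 tested changed), mostly from Pf4, which macrophages also express and which was not called. The part of other cells in the changes above was not tested.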

How the data were processed

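RNA-seq libraries of 12 mouse BMDM samples, 3 in each of 4 groups, were aligned by the authors to mm10 with HISAT2 and quantified with StringTie, and the FPKM values and the TPM values of 23959 genes were deposited. No read counts were used here, so the depth is unknown and count tests were not run. The labels name a stranded TruSeq kit and the methods a standard one.

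The groups were contrasted on log2(FPKM + 0.25) by limma (version 3.58.1, R 4.3.3) using lmFit and eBayes with trend, two-sided, with all 12 libraries in 1 fit and the Benjamini-Hochberg adjustment over 12315 genes with at least 0.5 FPKM in 3 libraries. The fit was checked on simulated data with few changed genes, as many raised as lowered, and no shift of the typical gene. The check therefore does not bear on the choice of scale. Tables and figures used Python 3.11.15, pandas 2.3.3 and matplotlib 3.10.9. Positions and promoters are from RefSeq GRCm38.p6 and 3′ untranslated regions from the basic GENCODE annotation of the same build.

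The 52 gene lists, tests and thresholds were chosen with earlier results of these data known, and list counts carry no test. Genes were named if they were among the 15 called genes with the strongest increase or the 15 with the strongest decrease (a group mean of 2 FPKM or more, groups without overlap, predicted symbols left out), the 10 largest rises or falls in mean FPKM, core members of each list with up to 6 called members in each direction (3 by level for cell type markers), members of runs, and genes named by the study. Genes of switched expression outside these were chosen after their values were seen. Not every gene the rule selects is printed, and some are not reported here.

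Each comparison was repeated on TPM, with a pseudocount of 0.1 or of 1, without the filter or with a filter at 1 FPKM, with median-ratio scaling, quantile normalization, eBayes without trend, the 6 libraries alone, a replicate block, single libraries removed, the raw p, calls without or with a 2-fold minimum, limma's treat, and shares from FPKM.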

Additional observations from a re-analysis of the deposited data

How the results depend on the processing

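The counts of raised and lowered genes (1355 and 4405) depended on scaling and on the fold minimum. Median-ratio scaling gave 2094 and 2284, quantile normalization 1805 and 2408, no fold minimum 2209 and 8439, and a 2-fold minimum 945 and 2131. The share of calls that were higher was 23.5% as deposited and 47.8% after median-ratio scaling. Other settings stayed within 1.5 times: TPM gave 1577 and 4968, pseudocounts of 0.1 and 1 gave 1381 and 4601 and 1219 and 3411, no filter 1518 and 4913, at least 1 FPKM 1252 and 3998, no trend 1350 and 4399, the 6 libraries alone 1319 and 4365, an unadjusted p 1358 and 4408, and treat 1159 and 3146. Leaving out a library gave 1336 to 1373 raised and 4344 to 4466 lowered genes. With the replicate number as a block, 1359 and 4411 genes were called. Deviations of same-numbered libraries correlated at 0.00893, -0.0998 and 0.0384, and those of differently numbered ones at -0.111 to 0.102. Such small values cannot show whether same-numbered libraries share a mouse or culture. No named gene changed sign among called genes in any alternative. Of the named genes, 108 lost their call with a 2-fold minimum, 58 with median-ratio scaling, 49 with treat, 37 with quantile normalization, 24 with a pseudocount of 1, 3 on TPM and 2 to 5 without a single library. Shares from FPKM equal those from TPM by arithmetic, since TPM is FPKM rescaled to a fixed total per library, so that repeat checks nothing. Without read counts, the depth that limits low values could not be given, and values near 0 FPKM are the least certain.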
